A study of Mus musculus with 28 samples.

Results

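Gap junctions of the heart are built from connexins, and 5 connexin genes are described here in mouse embryonic fibroblasts (MEFs) driven toward induced cardiomyocytes (iCMs). They are Gja1 (connexin 43), Gja5 (connexin 40), Gjc1 (connexin 45), Gja4 (connexin 37) and Gjb2 (connexin 26). The genes were taken by symbol from the probe annotation of the array platform, and each was read by 1 probe set. They are 5 of 19938 genes named on the arrays. A gene was tested when its signal exceeded the array median, taken over all probe sets, on 3 or more of the 28 arrays, which 12211 genes did. Gja1 was above that median on 28 arrays, Gjc1 on 22, Gja5 on 11, Gjb2 on 2 and Gja4 on 0. Gja5 was above it on 0 of the 3 arrays of 0F, so it passed the filter through factor-treated arrays alone. Thus 3 of the 5 connexins were tested, and Gjb2 and Gja4 were read from a fit without this filter.

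Total RNA of 28 cell cultures was hybridised to single-channel arrays, and the deposited values are log2 signal. The groups were MEFs without factors (0F, 3 arrays) and MEFs given GMT (GATA4, MEF2C and TBX5, 5 arrays), NGMT (GMT with NKX2.5, 6 arrays), HGMT (GMT with Hand2, 3 arrays), HNGMT (GMT with Hand2 and NKX2.5, 3 arrays), DMT (MYOCD, MEF2C and TBX5, 4 arrays) or DMNT (DMT with NKX2.5, 4 arrays). Every culture with factors also carried lentiviruses for rtTA, the doxycycline-dependent activator of the tetO factor vectors, and for a TroponinT-GCaMP5-Zeo reporter. A reprogramming medium with 2 μg/mL doxycycline followed, zeocin at 300 μg/mL was given during 7 days, and RNA was taken on day 21. By its name, the reporter joins zeocin resistance to troponin T, a cardiac muscle gene, so the factor groups hold the cells that survived this selection. The protocol describes the 0F cells as not transduced and collected on day 21, while the source label names them as selected like all others; the titles and protocol were followed. A comparison with 0F therefore spans the factors, the viruses, doxycycline, the medium and zeocin at once, and these cannot be told apart. The labels call the cultures independent biological replicates, without naming litters or animals.

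Connexins assemble in sixes into hemichannels, and hemichannels of neighbouring cells dock to form the channels that carry current and small molecules between cells. Connexin 43 is the main connexin of ventricular working myocardium and is also made by fibroblasts and smooth muscle. Connexin 40 belongs to atrial myocardium, the ventricular conduction system and arterial endothelium, connexin 45 to the nodes and the early heart, connexin 37 to endothelium and connexin 26 to epithelia, the liver and the inner ear. GATA4, NKX2.5 and TBX5 are known activators of the connexin 40 gene, and the repressors TBX2 and TBX3 act on connexin genes of nodal cells.

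The 250 bases before the annotated start of 3 of the genes are shown, those of the genes with the largest difference from 0F (Gja5) and with calls in both Hand2 comparisons (Gja5, Gja1, Gjb2). They come from RefSeq (GRCm38.p6), where 4 of the 5 connexins matched, all but Gjc1. Gja5 lies on chr3:97032152-97032401 (plus strand), Gja1 on chr10:56377050-56377299 (plus strand) and Gjb2 on chr14:57104703-57104952 (minus strand), each printed along the gene's own strand. Capitals mark matches to any of 7 short motifs searched on both strands.
Gja5: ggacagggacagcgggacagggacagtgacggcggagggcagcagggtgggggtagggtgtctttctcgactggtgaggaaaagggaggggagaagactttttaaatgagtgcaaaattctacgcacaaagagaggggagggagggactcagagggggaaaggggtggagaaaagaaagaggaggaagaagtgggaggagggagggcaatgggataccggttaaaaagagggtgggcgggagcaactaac
Gja1: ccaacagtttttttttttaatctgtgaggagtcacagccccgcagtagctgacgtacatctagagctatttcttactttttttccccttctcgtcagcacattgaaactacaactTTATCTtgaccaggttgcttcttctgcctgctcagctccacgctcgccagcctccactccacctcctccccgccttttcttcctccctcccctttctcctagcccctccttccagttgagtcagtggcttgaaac
Gjb2: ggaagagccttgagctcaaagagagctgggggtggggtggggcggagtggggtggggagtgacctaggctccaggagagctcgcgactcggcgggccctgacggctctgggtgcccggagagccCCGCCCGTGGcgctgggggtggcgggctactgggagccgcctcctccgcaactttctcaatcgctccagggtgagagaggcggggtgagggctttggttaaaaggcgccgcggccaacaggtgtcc
The motifs were AGATAA for GATA factors (in 9.99% of 32851 windows of this length), GGTGTG for T-box factors (16.3%), TNAAGTG for NKX2.5 (10.1%), a MEF2 motif (3.2%), the HAND-type E-box CATCTG (14.4%), a loose CArG-like motif for SRF, the partner of myocardin (67.1%), and TATAAA (12.4%). The Gja1 window held the GATA letters once, on the other strand, 135 to 130 bases before the start. The Gjb2 window held the SRF letters once, 126 to 117 bases before the start, and the Gja4 window held them in 4 places from 200 to 49 bases before it. The Gja5 window held none of the 7, which says only that these letters are not in those 250 bases. No match overlapped another. GC content was 56.4% for Gja5, 50.0% for Gja1, 61.2% for Gja4 and 69.2% for Gjb2.

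The arrays fall into 3 sets of nearly equal value distribution, and groups share sets only in part. Set 1 holds 0F (3 arrays), GMT (2) and NGMT (3); set 2 holds GMT, NGMT, HGMT, HNGMT and DMT (3 each); set 3 holds DMT (1) and DMNT (4). In set 3, 1236 of 19938 genes (6.2%) carry the same value on all 5 arrays, against 2 genes in set 1 and 0 in set 2, so the spread between replicates is not measured there in the same way. The probe sets of 2 delivered factors rose with delivery: Hand2 was higher by 2.71 ± 0.07 (log2, standard error) in HGMT than in GMT, and Myocd by 3.63 ± 0.07 in DMT than in GMT. Others did not all do so. Relative to the array median in set 1, Mef2c read 2.22 to 2.30 in GMT and 2.99 to 3.08 in 0F. Tbx5 read 1.10 to 1.30 in GMT and 1.48 to 1.58 in 0F, and Gata4 0.49 to 0.53 and 0.26 to 0.30. Nkx2-5 differed by -0.03 ± 0.05 between NGMT and GMT, and whether its probe set, or those of Gata4, Mef2c and Tbx5, lies in the delivered sequence was not examined. All differences below are on the log2 scale with their standard error from limma, fitted over all 28 arrays with group and array set as terms, and adjusted p-values are Benjamini-Hochberg values over all genes of the fit. Levels are log2 signal minus the median of the array. In bulk RNA, fewer cells of a type and less RNA per cell cannot be told apart.

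Gja1 was the connexin with steady high signal: it lay 4.23 to 5.25 above the array median in every culture, 0F included. Gja5 ranged most widely, from -1.05 to 2.57. Gjc1 stayed close to the median, from -0.46 to 0.48. Gjb2 ran from -1.40 to 0.07 and Gja4 from -1.24 to -0.68, so both were near or below the middle of each array. Signals of different probe sets do not compare as amounts of RNA, so these levels describe each probe set against its own array only.

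**Figure D1:**
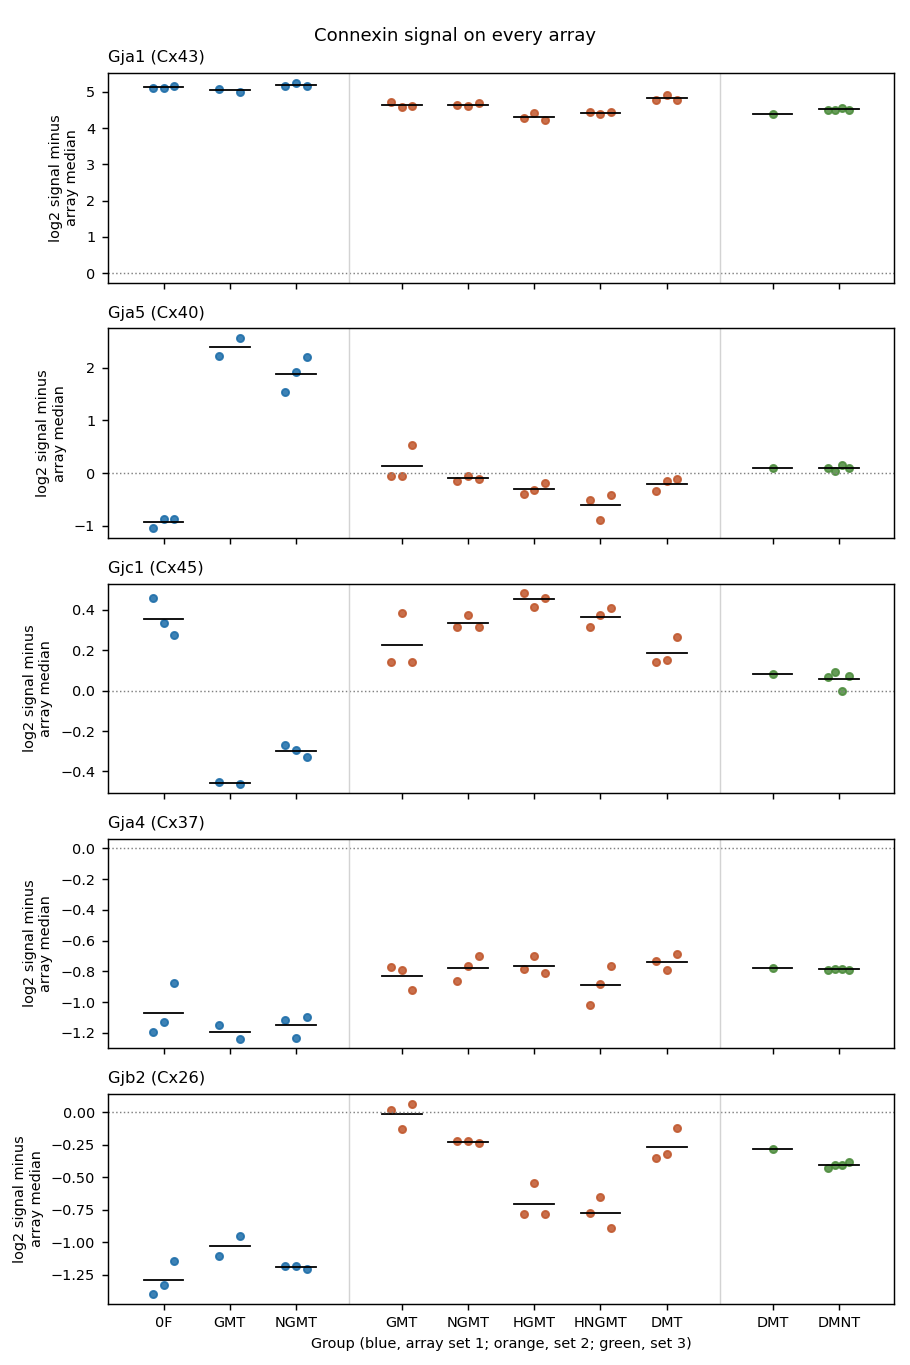
Log2 signal minus the array median (vertical axis) of 5 connexin genes on each of 28 arrays, by group and array set; points are arrays, black lines are means and the dotted line is the array median. Gja5 sits at 2.23 and 2.57 in the GMT arrays of set 1 and between -0.06 and 0.54 in those of set 2, while 0F lies between -1.05 and -0.87.

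Gja5, which encodes the fast-conducting connexin 40, showed the largest difference between factor-treated and untreated cells. In set 1, where 0F, GMT and NGMT can be compared directly, its level was -1.05, -0.88 and -0.87 in the 0F cultures. It was 2.23 and 2.57 in the GMT cultures and 1.53, 1.92 and 2.21 in the NGMT cultures. The lowest factor-treated array of set 1 thus lay more than 2 log2 units above the highest 0F array. How many of all genes separated between these groups was not counted. The fitted difference was 3.24 ± 0.15 for GMT against 0F (a 9.46-fold signal, adjusted p = 2.1e-15) and 2.87 ± 0.14 for NGMT against 0F (7.31-fold, adjusted p = 6.5e-15). With a separate mean for each group in each set the values were 3.33 ± 0.17 and 2.81 ± 0.15. Gja5 passed the filter through factor-treated arrays alone. Without the filter these separate means gave 3.33 ± 0.16 and 2.81 ± 0.15 (adjusted p = 1.9e-14 and 4.9e-14 by limma). All of these are differences of signal, and 0F lay below the array median, where a difference can be understated.

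Gjc1, the connexin 45 gene, moved the other way. Its level was 0.46, 0.33 and 0.27 in 0F, -0.45 and -0.46 in GMT and -0.27, -0.29 and -0.33 in NGMT of set 1. No factor-treated array of the set reached the 0F arrays, and the share of all genes separated in this way was not counted. Gjc1 fell by 0.80 ± 0.06 in GMT against 0F (adjusted p = 9.8e-11) and by 0.67 ± 0.06 in NGMT against 0F (adjusted p = 7.2e-10).

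Gja1 held its level. It was 5.11, 5.10 and 5.16 in 0F, 5.07 and 5.01 in GMT, and 5.17, 5.25 and 5.15 in NGMT of set 1. The differences from 0F were -0.04 ± 0.05 for GMT (95% interval -0.14 to 0.07, adjusted p = 0.56) and 0.02 ± 0.05 for NGMT (-0.08 to 0.12, adjusted p = 0.69). Both intervals include 0, and the wider of them reaches -0.14.

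Of the 3 tested connexins, 2 were called in GMT against 0F and the same number in NGMT against 0F, in comparisons where 60.1% and 60.8% of all tested genes were called. A count of 2 in 3 is near that background and is no result about the connexins. Gjb2 rose by 0.28 ± 0.07 in GMT against 0F (adjusted p = 0.0017 in the fit over all named genes, of which 41.7% were called). Its levels were -1.40, -1.33 and -1.15 in 0F and -1.11 and -0.95 in GMT, all below the median. Gjb2 in NGMT (0.08 ± 0.07, adjusted p = 0.35) and Gja4 in GMT (-0.13 ± 0.06, adjusted p = 0.12) or NGMT (-0.09 ± 0.06, adjusted p = 0.29) did not pass the test. Leaving out 0F replicate 1 brought Gja4 in GMT past the threshold, at -0.18.

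Marker genes of other cell types were counted in the same comparison, in which 35.9% of all tested genes were higher in GMT and 24.1% lower. Of 7 adipocyte genes tested, 7 were lower in GMT than in 0F, with a median of -5.02, and the mean level of the list was 5.01 to 5.17 in 0F against 0.03 to 0.09 in GMT of set 1. Of 8 macrophage genes, 7 were lower and 1 higher, with list means of 1.26 to 1.81 in 0F and -0.48 to -0.33 in GMT. Of 10 epithelial and mesothelial genes, 7 were higher and 0 lower (median 1.99), and the list mean was -0.56 to -0.44 in 0F and 0.85 to 0.96 in GMT. Msln and Upk1b, mesothelial and urothelial surface genes, rose by 5.14 ± 0.11 and 6.20 ± 0.13, while the epithelial adhesion genes Epcam and Cdh1 were below the median on all arrays. Of 11 endothelial genes 3 were higher and 3 lower, which is near those shares, and Pecam1, Kdr and Emcn, which define endothelium, were below the median on all 28 arrays. Of 9 fibroblast genes 9 were lower, and the list mean was 5.16 to 5.19 in 0F and 3.80 to 3.95 in GMT. The part of these cell types in the connexin differences was not tested.

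The size of each connexin signal also depended on the array set. GMT and NGMT have arrays in set 1 and set 2, and within these groups Gja5 was lower in set 2 by 1.95 ± 0.14 as deposited (-2.11 ± 0.13 relative to the array median). Gjb2 was higher in set 2 by 1.15 ± 0.04, Gjc1 by 0.82 ± 0.05 and Gja4 by 0.53 ± 0.04, and Gja1 was lower by 0.32 ± 0.04. In Gja5 the GMT arrays of set 2 read -0.05, -0.06 and 0.54 against 2.23 and 2.57 in set 1. The set difference of Gja5 was larger in size than that of 99.4% of tested genes, and 521 of 12211 genes differed at least 2-fold between the sets. No label says whether cultures or array processing differed between the sets, and these cannot be told apart. The mesothelial gene Msln stood at 4.77 to 4.91 in GMT of set 1 and at 1.94 to 2.01 in set 2, and its part in the Gja5 difference was not tested.

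Adding NKX2.5, a homeodomain factor of the early heart and the conduction system, to GMT left no connexin past the threshold. Of the 3 tested connexins 0 were called by limma, 2 had an unadjusted p under 0.05, and 1.63% of all tested genes were called. Gja5 was 0.37 ± 0.11 lower in NGMT than in GMT (adjusted p = 0.10), with 0.52 ± 0.17 in set 1 and 0.26 ± 0.15 in set 2. Leaving out GMT replicate 3 or 4 took Gja5 past the threshold, at a difference no larger in size than 0.44. Gjc1 differed by 0.12 ± 0.05 (adjusted p = 0.27), Gja1 by 0.06 ± 0.04 (adjusted p = 0.67), Gjb2 by -0.20 ± 0.05 (adjusted p = 0.071) and Gja4 by 0.04 ± 0.05 (adjusted p = 0.95). Gjc1 passed without GMT replicate 4, and Gjb2 without GMT replicate 4 or DMT replicate 3. The difference between sets of NGMT minus GMT passed the test in 0 of the 5 connexins, with adjusted p from 0.63 to 1.

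Hand2, a bHLH factor of the heart fields, was added to GMT in HGMT, and both groups have arrays in set 2. Gja1 read 4.71, 4.59 and 4.61 in GMT and 4.28, 4.42 and 4.23 in HGMT. Gjb2 read 0.02, -0.13 and 0.07 in GMT and -0.78, -0.54 and -0.78 in HGMT. Gja5 read -0.05, -0.06 and 0.54 in GMT and -0.40, -0.32 and -0.19 in HGMT. In these genes the HGMT arrays lay below the GMT arrays of the set, although for Gja5 the GMT mean owed much to replicate 5. Gjc1 went up: it read 0.14, 0.39 and 0.14 in GMT and 0.48, 0.41 and 0.46 in HGMT. How many of all genes separated between these arrays was not counted, so the separation is no result about the connexins.

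In HGMT against GMT, 3 of the 3 tested connexins were called, where 26.7% of all tested genes were. Gja1 fell by 0.27 ± 0.05 (0.832 of the GMT signal, adjusted p = 1.6e-04), Gja5 fell by 0.48 ± 0.14 (adjusted p = 0.014) and Gjc1 rose by 0.27 ± 0.06 (adjusted p = 0.0017). Gjb2 fell by 0.65 ± 0.07, to 0.638 of the GMT signal (adjusted p = 6.2e-08 in the fit over all named genes, of which 17.2% were called). The Gja5 call was lost without GMT replicate 5 or without HGMT replicate 1 (adjusted p up to 0.059) and with the arrays of set 2 alone (-0.42, adjusted p = 0.074). Gja4 differed by 0.09 ± 0.06 (adjusted p = 0.38).

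The same comparison with NKX2.5 present, HNGMT against NGMT, had 2 of 3 tested connexins called, against 31.7% of all tested genes. HNGMT read 4.46, 4.39 and 4.43 for Gja1, below the NGMT values of 4.63, 4.62 and 4.68. Gja1 fell by 0.22 ± 0.05 (adjusted p = 0.0011) and Gja5 by 0.42 ± 0.14 (adjusted p = 0.027), while Gjc1 differed by 0.04 ± 0.06 (adjusted p = 0.61). Gjb2, at -0.78, -0.65 and -0.89 in HNGMT and -0.22, -0.22 and -0.24 in NGMT, fell by 0.53 ± 0.07 (adjusted p = 2.0e-06, with 19.8% of named genes called). The Gja5 call was lost when any of NGMT replicates 4, 5 and 6 or HNGMT replicate 2 was left out (adjusted p up to 0.16). Gja4 differed by -0.09 ± 0.06 (adjusted p = 0.35).

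Whether the Hand2 difference changed with NKX2.5 was tested as an interaction. It was called in 0 of 3 tested connexins by limma (1 had an unadjusted p under 0.05) and in 0 of 12211 genes (0%, with 2044 at an unadjusted p under 0.05). The largest was that of Gjc1, at -0.22 ± 0.08 (adjusted p = 0.22). Against each other, HNGMT and HGMT gave 0 of 3 calls (1 at an unadjusted p under 0.05), with 0.622% of all tested genes called. Gja5 was -0.50, -0.89 and -0.41 in HNGMT, and its difference from HGMT was -0.31 ± 0.15 (adjusted p = 0.19). Gja1 differed by 0.10 ± 0.05, Gjc1 by -0.10 ± 0.06, Gja4 by -0.14 ± 0.06 and Gjb2 by -0.08 ± 0.07, with adjusted p from 0.20 to 0.57.

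With both Hand2 and NKX2.5 added to GMT, 3 of 3 tested connexins were called, where 35.2% of all tested genes were. Gja5 fell by 0.79 ± 0.14 (0.579 of the GMT signal, adjusted p = 1.6e-04), which was the largest Gja5 difference among pairs of factor groups in the fit. Gja1 fell by 0.16 ± 0.05 (adjusted p = 0.011) and Gjc1 rose by 0.17 ± 0.06 (adjusted p = 0.035). The Gjc1 call was lost without GMT replicate 2, 3 or 5 or HNGMT replicate 2 or 3, and Gja1 reached an adjusted p of 0.053 after quantile normalization. Gjb2 fell by 0.73 ± 0.07 (adjusted p = 9.5e-09, with 22.3% of named genes called). HGMT against NGMT gave 1 call of 3 (25.6% of all tested genes), Gja1 at -0.33 ± 0.05 (adjusted p = 1.3e-05), and Gjb2 was lower by 0.45 ± 0.07 (adjusted p = 1.8e-05, with 16.5% of named genes called).

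Marker lists were also counted with Hand2, where 12.2% of all tested genes were higher in HGMT than in GMT and 14.5% lower. Of 7 adipocyte genes, 7 were higher in HGMT than in GMT (median 0.91), with list means of 2.08 to 2.40 and 1.10 to 1.43 in set 2. Of 11 endothelial genes 5 were higher and 0 lower. Cdh5, an endothelial cadherin, rose by 1.33 ± 0.07 and was above the median on the 3 HGMT arrays alone of all 28. Pecam1, Kdr and Emcn remained below it. The epithelial and mesothelial list had 3 higher and 2 lower of 10, the smooth muscle list 2 higher and 3 lower of 10, the fibroblast list 3 higher and 0 lower of 9, and the pericyte list 0 of 5. The macrophage list had 0 higher and 1 lower of 8. In HNGMT 11% of all tested genes were higher than in GMT and 24.1% lower, and 8.73% were higher than in NGMT and 22.9% lower. Adipocyte genes were higher in 6 of 7 against GMT and in 5 of 7 against NGMT, with 0 lower in either, and their list mean was 1.58 to 2.50 in HNGMT. Macrophage genes were higher in 4 of 8 and lower in 0 against both. Their list mean ran from -0.36 to 0.43 over the 3 HNGMT arrays, against -0.52 to -0.42 in GMT and -0.50 to -0.06 in NGMT of set 2. The blood cell gene Ptprc was below the median on all 28 arrays. That includes 0F, where Ptprc read -0.53 to -0.41 while the macrophage list mean was 1.26 to 1.81. Ptprc was thus low also where the list stood high. Endothelial genes were higher in 4 and lower in 2 of 11 against GMT, and higher in 4 and lower in 1 against NGMT. Their part in the connexin differences was not tested.

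MYOCD, the SRF coactivator of smooth and cardiac muscle genes, took the place of GATA4 in DMT, and here Gja1 rose. The DMT arrays of set 2 read 4.78, 4.92 and 4.78 for Gja1, all above the GMT arrays at 4.71, 4.59 and 4.61. Gja5 read -0.34, -0.15 and -0.11 in DMT, all below GMT, and Gjc1 at 0.14, 0.15 and 0.27 overlapped GMT. Gjb2 read -0.35, -0.32 and -0.12, and the highest of these overlapped the lowest GMT array, -0.13. The share of all genes that separated between DMT and GMT was not counted.

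In DMT against GMT, 2 of the 3 tested connexins were called, where 18.6% of all tested genes were. Gja1 rose by 0.20 ± 0.05 (1.15-fold, adjusted p = 0.0028) and Gja5 fell by 0.42 ± 0.14 (adjusted p = 0.039). Gjb2 fell by 0.26 ± 0.07 (adjusted p = 0.0088, with 11.9% of named genes called). Gjc1 differed by -0.05 ± 0.06 (adjusted p = 0.73) and Gja4 by 0.07 ± 0.06 (adjusted p = 0.63). The Gja5 call was lost in 7 of the fits that left out 1 array (GMT replicates 2 and 5, DMT replicates 1 to 3, NGMT replicates 5 and 6). With the arrays of set 2 alone the adjusted p was 0.17 for Gja5, 0.052 for Gja1 and 0.068 for Gjb2. The Gjb2 call was also lost without DMT replicate 1 or 2.

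DMT was also set against the Hand2 combinations. In DMT against HGMT 2 of 3 tested connexins were called (36.9% of all tested genes), with Gja1 higher by 0.47 ± 0.05 (1.39-fold, adjusted p = 6.3e-08) and Gjc1 lower by 0.31 ± 0.06 (adjusted p = 3.9e-04). In DMT against HNGMT the count was again 2 of 3 (41.6% of all tested genes), with Gja1 higher by 0.37 ± 0.05 (adjusted p = 3.0e-06) and Gjc1 lower by 0.22 ± 0.06 (adjusted p = 0.0097). Gjb2 was higher in DMT by 0.39 ± 0.07 than in HGMT (adjusted p = 1.1e-04, with 23.9% of named genes called) and by 0.48 ± 0.07 than in HNGMT (adjusted p = 9.7e-06, with 27% of named genes called). Gja5 differed by 0.06 ± 0.15 from HGMT (adjusted p = 0.80) and by 0.37 ± 0.15 from HNGMT (adjusted p = 0.052). DMT against NGMT gave 2 calls of 3 (20.1% of all tested genes), Gja1 at 0.14 ± 0.05 (adjusted p = 0.035) and Gjc1 at -0.17 ± 0.06 (adjusted p = 0.0496). The Gjc1 call was lost in 18 of 28 fits without 1 array, and the Gja1 call in 4.

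Smooth muscle genes differed in the same comparison, in which 9.84% of all tested genes were higher in DMT and 8.75% lower. All 10 listed smooth muscle genes were higher in DMT than in GMT (median 2.01), with list means of 2.91 to 3.15 in DMT and 0.55 to 0.64 in GMT of set 2. Cnn1, the smooth muscle calponin, rose by 4.78 ± 0.11. Adipocyte genes were lower in 5 of 7, pericyte genes higher in 2 of 5, fibroblast genes higher in 1 and lower in 2 of 9, and skeletal muscle genes higher in 2 of 4. Endothelial genes were higher in 2 and lower in 4 of 11, epithelial and mesothelial genes higher in 2 and lower in 2 of 10. Their part in the rise of Gja1 was not tested.

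NKX2.5 beside MYOCD was read from DMNT and the 1 DMT array of set 3, whose unseen spread the fit borrows from the rest. Of 3 tested connexins 0 were called by limma, 0 had an unadjusted p under 0.05, and 0.0737% of all tested genes were called. Gja5 read 0.10, 0.04, 0.16 and 0.10 in DMNT and 0.09 in DMT, a difference of 0.02 ± 0.21. Gja1 read 4.50, 4.51, 4.57 and 4.49 in DMNT and 4.39 in DMT, a difference of 0.14 ± 0.07 (95% interval -0.01 to 0.28, adjusted p = 1). Gja4 carried the same deposited value on all 5 arrays of the set. The interaction of NKX2.5 with the choice of MYOCD or GATA4 was called in 0 of 3 connexins by limma (0 at an unadjusted p under 0.05), and in 1 of all tested genes (0.00819%). DMNT against NGMT, which share no set, gave 1 call of 3 (6.27% of all tested genes), Gja1 at 0.28 ± 0.08 (adjusted p = 0.0495), and this call was lost in 18 of 27 fits without 1 array.

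**Figure D2:**
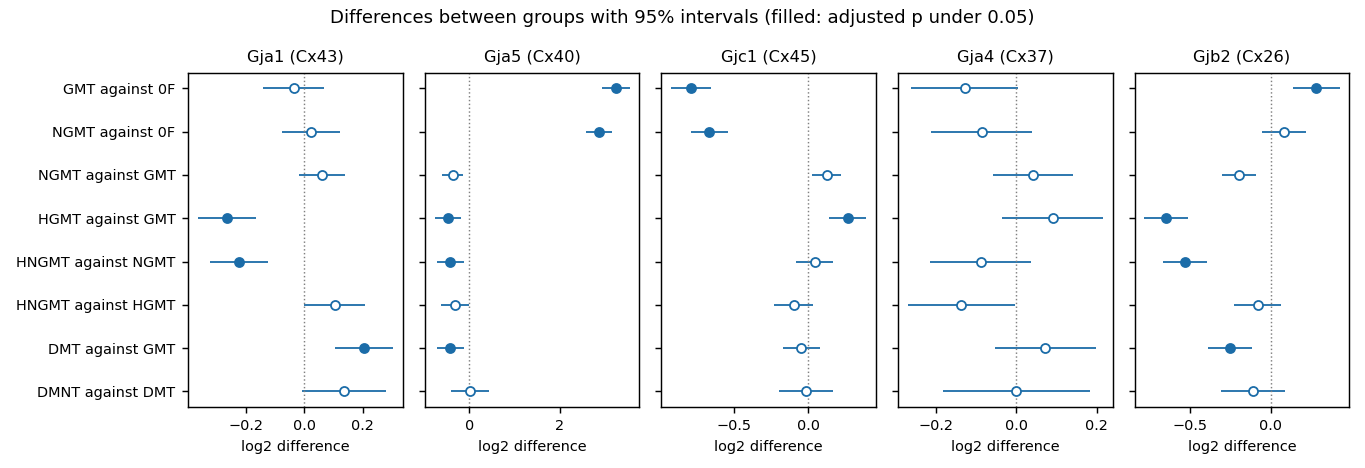
Log2 differences (horizontal axis, a scale of its own in each panel) with 95% intervals for 5 connexin genes in 8 comparisons; filled points have an adjusted p under 0.05 in limma. Gja5 stands at 3.24 in GMT against 0F, and Gja1 and Gjb2 lie left of 0 in both Hand2 comparisons.

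The order of the groups within set 2 differed between the genes. For Gja1 it ran from DMT (4.83 ± 0.08, SD, n = 3) through NGMT (4.64 ± 0.03) and GMT (4.64 ± 0.06) to HNGMT (4.43 ± 0.03) and HGMT (4.31 ± 0.10). For Gjc1 it was close to the reverse, from HGMT (0.45 ± 0.04) through HNGMT (0.37 ± 0.05), NGMT (0.34 ± 0.03) and GMT (0.23 ± 0.14) to DMT (0.19 ± 0.07). For Gjb2 it ran from GMT (-0.01 ± 0.10) through NGMT (-0.23 ± 0.01), DMT (-0.26 ± 0.13) and HGMT (-0.70 ± 0.14) to HNGMT (-0.77 ± 0.12). For Gja5 it ran from GMT (0.14 ± 0.34) through NGMT (-0.10 ± 0.05), DMT (-0.20 ± 0.12) and HGMT (-0.30 ± 0.10) to HNGMT (-0.60 ± 0.26). Among neighbours in these orders, DMT and NGMT differed by the test in Gja1, as did GMT and HNGMT in Gja1 and DMT and HGMT in Gjb2. The other neighbouring pairs of these 4 genes did not pass it. Gja4 lay between -0.89 ± 0.13 in HNGMT and -0.74 ± 0.05 in DMT, and 0 of its 10 pairs passed.

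HGMT, HNGMT, DMT and DMNT share no set with 0F, so their differences from 0F rest on GMT and NGMT, which sets 1 and 2 both hold, and for DMNT also on the DMT array of set 3. All 3 tested connexins were called in each of the 4 comparisons, where 51.1% (HGMT), 49.7% (HNGMT), 56.4% (DMT) and 41.4% (DMNT) of all tested genes were called. Gja5 was higher by 2.76 ± 0.19, 2.45 ± 0.19, 2.82 ± 0.19 and 2.84 ± 0.28, in the same order. A direct difference after quantile normalization of all arrays, with no set term, gave 0.72, 0.43, 0.85 and 1.02 (adjusted p from 0.098 to 0.55). The direction of Gja5 is thus shared by both ways of reading, and its size and call are not.

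For the other connexins even the direction depended on the reading in some of these combinations. Gjc1 was lower than in 0F by the fit, at -0.53 ± 0.08 in HGMT, -0.63 ± 0.08 in HNGMT, -0.84 ± 0.08 in DMT and -0.86 ± 0.12 in DMNT, while the direct values were 0.14, 0.07, -0.19 and -0.34. Gja1 was at -0.30 ± 0.06, -0.20 ± 0.06, 0.17 ± 0.06 and 0.30 ± 0.09 by the fit, and at -0.75, -0.65, -0.34 and -0.27 directly. Gjb2 was called by the fit over all named genes in HGMT (-0.37 ± 0.09, adjusted p = 0.0015, with 34.8% called) and HNGMT (-0.45 ± 0.09, adjusted p = 1.8e-04, with 33.7% called), and the direct values were 0.69 and 0.62. Gja4 was at -0.04 ± 0.08, -0.17 ± 0.08, -0.06 ± 0.08 and -0.06 ± 0.12 by the fit, and at 0.41, 0.28, 0.35 and 0.21 directly. By the fit Gja4 was called in none of these, and directly it was called in HGMT and DMT. Only Gja1 in HGMT and HNGMT was lower than in 0F and called under both readings. The Gja1 call in DMT against 0F was lost without 0F replicate 2 or 3, NGMT replicate 2 or DMT replicate 2.

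**Figure D3:**
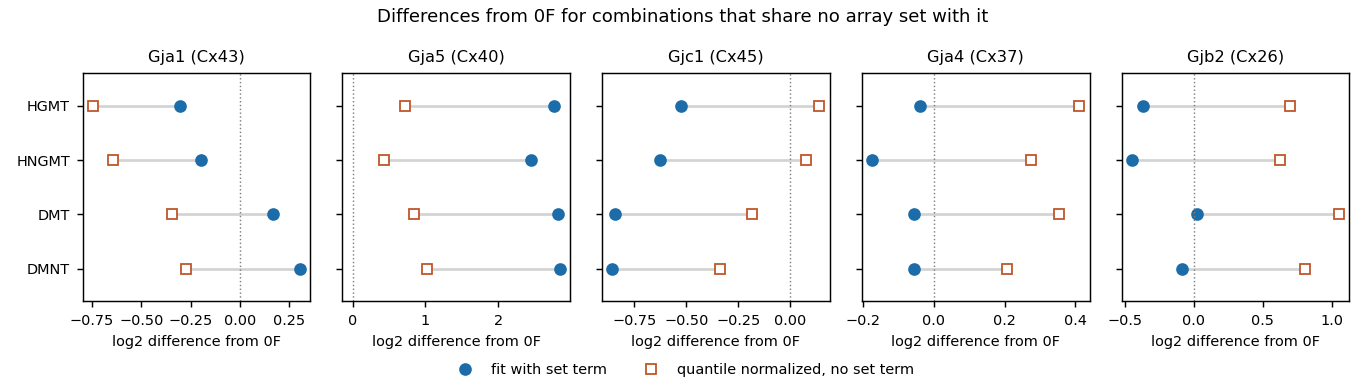
Log2 differences from 0F (horizontal axis, a scale of its own in each panel) of the 4 combinations that share no array set with 0F, from the fit with a set term (filled circles) and after quantile normalization with no set term (open squares). For Gja5 both lie right of 0, at 2.45 to 2.84 and at 0.43 to 1.02, while for Gjb2 in HGMT and HNGMT they lie on opposite sides.

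Of 15 further connexin genes, 11 had a named probe set and 8 of these were below the array median on all 28 arrays. The 3 that were tested were Gja3 and Gjd3, above the median on all 28 arrays, and Gjb5, above it on 15. In GMT against 0F, Gja3 rose by 0.29 ± 0.08 and Gjb5 by 0.19 ± 0.08, while Gjd3 differed by -0.02 ± 0.09; in HGMT against GMT and in DMT against GMT 0 of the 3 were called. Of the 3 pannexins, which form channels in the membrane without docking to a neighbour, Panx1 rose by 0.74 ± 0.06 in GMT against 0F and Panx2 differed by 0.01 ± 0.05. Panx3 was below the median on all arrays. Neither Panx1 nor Panx2 was called in HGMT or DMT against GMT. Gja3 is the neighbour of Gjb2 and Gjb5 lies near Gja4 in the mouse gene order.

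Connexin 43 sits in the intercalated disc beside cadherins, desmosomes and their adaptors, and of 18 such genes tested 14 were higher and 2 lower in GMT than in 0F (35.9% and 24.1% of all tested genes; list median 0.76, all genes 0.05). Des, the muscle intermediate filament, rose by 4.66 ± 0.09, the desmosomal Dsp by 3.66 ± 0.16 and Pkp2 by 2.09 ± 0.12, and Cxadr, a tight junction receptor, by 2.45 ± 0.08. Ccn3, a matricellular partner of connexin 43, fell by 1.80 ± 0.08. Tjp1, the ZO-1 scaffold that binds connexin 43, rose by 1.08 ± 0.07, while Gja1 itself was not called. In NGMT against 0F the counts were 13 higher and 2 lower, where 36.6% and 24.2% of all tested genes were.

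Among the factor groups these partners divided. In HGMT against GMT 9 of 18 were higher and 3 lower (12.2% and 14.5% of all tested genes; median 0.16, all genes -0.01). Pkp2 rose by 0.99 ± 0.12, N-cadherin Cdh2 by 0.98 ± 0.08 and the desmosomal cadherin Dsc2 by 0.91 ± 0.07, and Des fell by 1.65 ± 0.08. In DMT against GMT 6 were higher and 5 lower (9.84% and 8.75% of all tested genes; median 0.08, all genes 0.01). Cdh2 fell by 0.97 ± 0.08, Dsp by 0.95 ± 0.15 and Cxadr by 0.72 ± 0.07, and the Z-disc gene Nexn rose by 0.80 ± 0.12. The partners went both ways beside Gja1. In HGMT, where Gja1 fell, 9 of 18 were higher and 3 lower, and in DMT, where Gja1 rose, 6 were higher and 5 lower. In NGMT against GMT 1 of the 18 partners was higher and 2 lower, where 0.688% and 0.942% of all tested genes were.

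**Figure D4:**
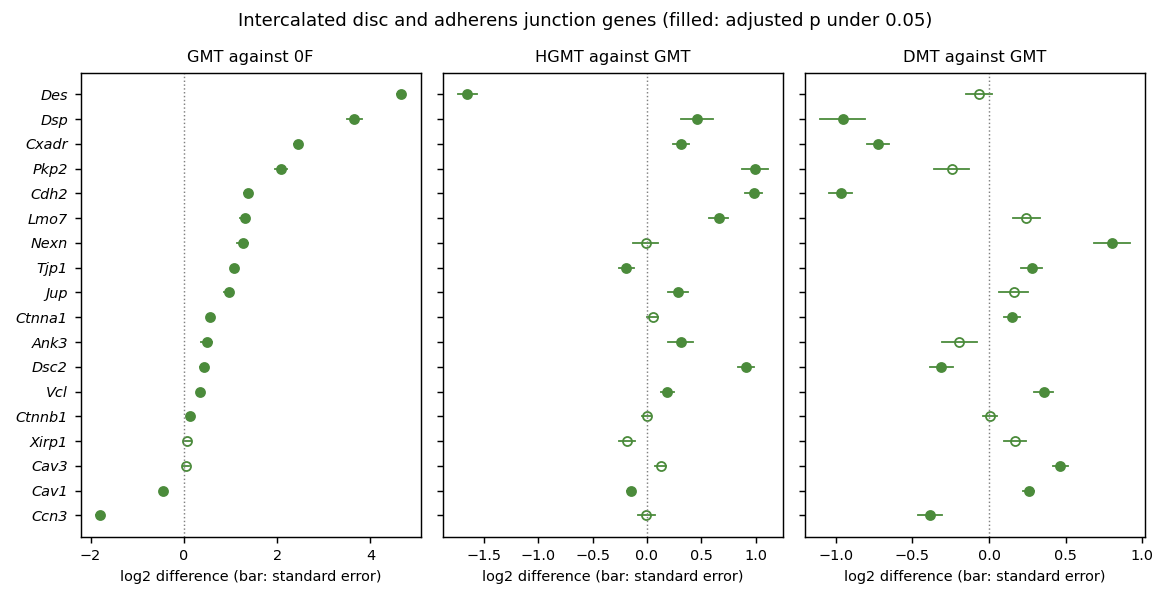
Log2 differences (horizontal axis, bars are standard errors) of 18 tested intercalated disc and adherens junction genes in 3 comparisons; filled points have an adjusted p under 0.05 in limma. Cdh2 lies at 0.98 in HGMT against GMT and at -0.97 in DMT against GMT.

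Among 18 tested genes of a chosen list of transcription regulators, 9 were higher and 5 lower in GMT than in 0F (median 0.15), against 35.9% and 24.1% of all tested genes. A role of each at connexin genes was not examined. Tbx18 rose by 1.40 ± 0.09 and Tbx20 by 0.84 ± 0.14, and Id2 fell by 1.33 ± 0.05 and Gata6 by 0.85 ± 0.10. In HGMT against GMT 5 were higher and 3 lower (median 0.09; 12.2% and 14.5% of all tested genes): Tbx20 rose by 2.05 ± 0.13, Gata6 by 0.59 ± 0.09 and the delivered Hand2 as given above, and Tbx3, a repressor of connexin 40 and connexin 43 genes, fell by 0.60 ± 0.07. In DMT against GMT 3 were higher and 3 lower (median 0.01; 9.84% and 8.75% of all tested genes), led by the delivered Myocd and by Tbx18 at 0.69 ± 0.08, with Gata4 lower by 0.30 ± 0.08. In NGMT against GMT 0 of 18 were called by limma, and 1.63% of all tested genes. The shares of all tested genes just given hold for the next lists too. Of 13 genes of working and atrial myocardium, 11 were higher and 0 lower in GMT than in 0F (median 2.14), 1 was higher and 6 lower in HGMT than in GMT (median -0.26), and 5 were higher and 5 lower in DMT than in GMT (median 0.14). Of 5 conduction system genes 1 was higher and 0 lower in the first comparison, 2 and 2 in the second, and 2 and 1 in the third, where the pacemaker channel gene Hcn4 rose by 1.42 ± 0.10.

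The genes whose signal most resembled that of a connexin were ranked by Pearson correlation over the 28 arrays, with each gene centred in each array set. The arrays share groups and sets, so these values are a description. For Gja5 the nearest were Nfkbiz (r = 0.97), an inflammatory regulator, Lif (0.97), a cytokine, Gstm6 (0.97), Slc35f6 (0.97) and Cers6 (0.97), and the most unlike were Sema3c (-0.97), A830018L16Rik (-0.97) and Map7d3 (-0.96). Over set 2 alone, without 0F, these 5 correlated at 0.54 to 0.79, and 0 of the 5 were among the nearest 5. For Gjc1 the nearest were Reps2 (0.96), Adam12 (0.96), Septin11 (0.96), Slc24a3 (0.96) and Ghr (0.95), and the most unlike Retreg1 (-0.96), Ccdc68 (-0.95) and Col10a1 (-0.95). For Gja1 they were Olfml2b (0.90), Lars (0.90), Tnfaip6 (0.89), Sema3a (0.89) and Nudt4 (0.88), against Lypd1 (-0.89), Npl (-0.89) and Cxcl17 (-0.89). For Gjb2 they were Plin2 (0.92), a lipid droplet gene, Slc16a12 (0.91), Itga6 (0.90), Trpm6 (0.88) and Cd83 (0.88), against Fhl2 (-0.89), H2ac15 (-0.88) and Pde9a (-0.87). For Gja4, whose signal was low throughout, the nearest was Rims4 (0.79). These lists depended on the measure. Over set 2 alone, 1 of the 5 nearest stayed among the nearest 5 for each of Gja1, Gjc1, Gjb2 and Gja4. By Spearman correlation over all arrays 2 stayed for Gja1, 1 for Gjc1, 3 for Gjb2, 3 for Gja4 and 1 for Gja5.

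Among the connexins themselves, Gja5 and Gjc1 had r = -0.90 over the 28 centred arrays and -0.38 over the 15 arrays of set 2. Gja1 and Gjc1 had -0.32 over all arrays and -0.87 in set 2, and Gja1 and Gjb2 had 0.58 and 0.71. The opposed course of Gja5 and Gjc1 thus lies mainly in the step from 0F to the factor groups, and that of Gja1 and Gjc1 among the factor groups of set 2.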

How the data were processed

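Signals of 28 arrays were taken from the authors' deposited matrix of 35556 probe sets, whose values are on a log2 scale from 3.757941 to 14.46866. MAS5 is the only tool named, per the submitters' processing notes; its version, summarization and scaling are not stated there. Of the probe sets, 21789 had 1 gene symbol, 1621 several and 12146 none, and only the first were named. Names come from the probe annotation of the platform and promoter windows from RefSeq tables of GRCm38.p6, while the build of the arrays' design is not given.

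Array sets were found from the sorted values of each array, by average linkage into 3 sets (largest mean distance inside a set 0.0486, smallest between sets 0.135). The array medians were 6.68 to 6.75, 6.86 to 6.95 and 7.64 to 7.65. Such data hold no counts or depth, and the number of arrays limits the precision.

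Differences were fitted with limma 3.58.1 in R 4.3.3 (lmFit, contrasts, eBayes with trend; 19 residual degrees of freedom), with group and set as terms, in 18 group comparisons and 2 interactions. Tests were two-sided, and genes with an adjusted p under 0.05 were called. The fit was tested on simulated data. Deviations of arrays with the same replicate number in the titles correlated at a median of 0.02 over 21 pairs, and 7 pairs exceeded 0.1. With different numbers the median was -0.02 over 90 pairs, and 24 exceeded 0.1. The numbers in the array names differ from those of the titles in GMT and NGMT of set 2. Pairing by array name was not tested, so whether cultures were paired is not known.

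The connexins and all gene lists were chosen with earlier results of these data known. The named genes are the 5 connexins, the 5 genes most like and 3 most unlike each (part is printed), and up to 4 called members of a list of largest size; Epcam, Cdh1, Pecam1, Kdr, Emcn, Ptprc, Tjp1, Ccn3, the delivered factors and genes given as not called were named outside that rule, after their values were seen. Alternatives left out the set term, changed the normalization, the filter, the moderation and the arrays used, or left out each array in turn; separate means for each group in each set were added after the data were seen.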

Additional observations from a re-analysis of the deposited data

How the results depend on the processing

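Of 3725 connexin values recomputed under 44 settings, 3497 kept their side of the threshold, of which 64 changed sign while called in neither fit. The call was lost by 149 and gained by 36 with the direction kept, and 43 changed sign while called in at least 1 of the fits, 0 of these by leaving out 1 array. Counts here are of the 3 tested connexins unless another number is given. Counts over all genes stand beside them where these moved furthest from the main fit. Without a set term 1 was called in GMT, NGMT, HGMT and HNGMT against 0F and 0 in DMT against 0F. The count was 1 in HGMT against GMT (1000 of 12211 genes called) and HNGMT against NGMT (943), and 0 in HNGMT against GMT (937). It was 0 in DMT against GMT and NGMT (4515 of all genes called in the latter), and 1 in DMT against HGMT (2460) and HNGMT (3094). DMNT against DMT and NGMT gave 2, where 9692 and 11119 of 12211 genes were called, so these counts are no result about the connexins. Quantile normalization with no set term gave 1 in GMT, NGMT, HGMT, HNGMT and DMT against 0F. It also gave 1 in HNGMT against GMT (2362 of 12211 genes called) and in DMT against HGMT. The count was 0 in DMNT against 0F (7875 of all genes called) and NGMT (5604), and in DMT against GMT, NGMT and HNGMT (3377 in the last). With the set term kept, it gave 0 in DMNT against NGMT and 1 in DMT against NGMT. A set term of 2 levels split the arrays named MEF from all others, which joins sets 2 and 3. It gave 1 in HGMT and HNGMT against GMT and in HNGMT against NGMT (1403, 1564 and 1284 of 12211 genes called). It also gave 1 in DMT against GMT, NGMT and HGMT. The count was 3 in DMNT against DMT and NGMT and in the interaction of NKX2.5 with MYOCD. There 11156, 11178 and 9980 of 12211 genes were called, so 3 of 3 is near that background and is no result about the connexins.

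The arrays of set 2 alone gave 0 in DMT against GMT and 1 in DMT against NGMT. No filter, with all 5 connexins counted, gave 2 in HGMT against NGMT (Gja1 and the dim Gjb2) and 0 in DMT and DMNT against NGMT, and no trend in the moderation gave 0 in DMNT against NGMT. The stricter filter, which removes Gja5 and leaves 2 connexins, gave 1 in GMT and NGMT against 0F, HNGMT against NGMT and DMT against GMT, and 0 in DMNT against NGMT. The replicate block gave 1 in NGMT against GMT (Gja5 at -0.45, adjusted p = 0.024 by limma) and in HNGMT against NGMT (1401 of all genes called). It gave 0 in DMT against GMT and in DMNT and DMT against NGMT (339 and 1501 of all genes called). This block used the title numbers, and whether these pair the cultures is not known. Leaving out each array in turn gave 0 to 2 in NGMT against GMT (52 to 386 of all genes called) and DMT against NGMT (1885 to 3334). It gave 1 to 2 in HNGMT against NGMT (3248 to 4715), DMT against GMT (1743 to 3083) and HGMT against NGMT (2376 to 4331). DMNT against NGMT ran from 0 to 1 (636 to 1173 of all genes called).

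Signs changed without a set term for Gjc1 in HGMT (0.29), HNGMT (0.19), DMT (0.14) and DMNT (0.63) against 0F, DMNT against DMT (0.49) and NGMT (0.89) and DMT against NGMT (0.40); for Gja1 in DMT against 0F (-0.068); for Gjb2 in HGMT (0.78), HNGMT (0.70) and DMNT (1.81) against 0F, HNGMT (0.041), DMNT (1.16), HGMT (0.12) and DMT (0.70) against NGMT and DMT against GMT (0.39); and for Gja4 in DMT (0.66) and DMNT (1.21) against 0F and the NKX2.5 interaction with MYOCD (0.56). After quantile normalization with no set term they changed for Gjc1 in HGMT (0.14) and HNGMT (0.074) against 0F and DMT against NGMT (0.13), for Gja1 in DMT (-0.34) and DMNT (-0.27) against 0F, DMT against GMT (-0.033) and DMNT (-0.082) and DMT (-0.15) against NGMT, for Gja4 in HGMT (0.41) and DMT (0.35) against 0F, and for Gjb2 in HGMT (0.69), HNGMT (0.62) and DMNT (0.81) against 0F, DMT against GMT (0.13) and HGMT against NGMT (0.054). With a set term of 2 levels they changed for Gjc1 in DMNT against DMT (0.49) and NGMT (0.48) and the interaction (0.36), for Gja5 in DMNT against NGMT (1.03), for Gja4 in DMNT against 0F (0.67) and the interaction (0.51), and for Gjb2 in DMNT against 0F (0.66), DMT (0.45) and NGMT (0.58). The cause was not tested. Over all genes, calls in HGMT against GMT numbered 2080 with set 2 alone and 2088 with the replicate block, in place of 3258, and those in HNGMT against HGMT ran from 1 to 3143 as single arrays were left out, in place of 76.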
